A study of Mus musculus with 7 samples.

Results

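The transforming growth factor beta (TGF-beta) pathway was followed through 9 genes in plantaris muscle of Pax7-DTA mice. They are the ligands Tgfb1, Tgfb2 and Tgfb3, the latent TGF-beta binding proteins Ltbp1 and Ltbp2, the receptors Tgfbr1 and Tgfbr2, and the intracellular Smad3 and Smad7. The genes were chosen by name, with earlier results of these data known, so their shares beside all genes are descriptive. All 22 probe sets that the platform annotation assigns to one of these symbols alone were examined. There are 34945 such probe sets for 18193 genes. For each gene the brightest probe set on average (mean log2 level of the 7 arrays) stands for it. The mice were 4 months old and all of them carried both parental alleles, Pax7-CreER and Rosa26-DTA. In this model the Pax7 gene drives a Cre recombinase that tamoxifen activates, and Cre then switches on diphtheria toxin fragment A in cells that express Pax7, which in muscle are the satellite cells (muscle stem cells). Vehicle-treated mice carry the same alleles without activation. Muscles were sham operated or overloaded for 1 week by removal of synergist muscles.

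There was 1 array each for vehicle sham and tamoxifen sham (both male), 2 arrays for vehicle overload (replicate 1 female, replicate 2 male) and 3 for tamoxifen overload (replicates 1 and 2 male, replicate 3 female). Each title names a mouse, but the design text describes pooling of muscles from 11 animals, so what a replicate stands for is uncertain, and the p-values measure only the spread between these arrays. Array medians ran from 88.2 to 127.7 in signal, and between 66.8% and 72.7% of the genes lay above the background level, a signal of 53.6. The labelled tissue was borne out by the fibre genes Acta1, Ckm and Myh1, which lay above background on all 7 arrays. Pax7 had signals of 273.8 and 348.8 on the vehicle overload arrays, of 57.9, 9.97 and 120.4 on the tamoxifen overload arrays, and of 92.8 and 41.2 on the vehicle and the tamoxifen sham array.

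TGF-beta ligands are secreted in a latent form, folded inside their own propeptide. LTBP1 binds this latent complex covalently and anchors it in the extracellular matrix, from which integrins and proteases release the active ligand, whereas LTBP2 belongs to the same family but does not bind the latent complex. The active ligand binds TGFBR2, which phosphorylates TGFBR1. TGFBR1 then phosphorylates SMAD2 and SMAD3, which enter the nucleus with SMAD4. SMAD7, itself induced by the pathway, blocks the receptors. In skeletal muscle TGF-beta is known as a driver of matrix production by fibroblasts and as an inhibitor of myoblast differentiation and fusion.

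Since several of these genes moved together with overload, the sequence just upstream of their start sites is shown for the 4 genes that rose and have an entry in the RefSeq promoter table, and for Smad3, which fell. Of the 9 genes 7 have an entry there, and 2 of these have 2 start sites (of Ltbp1 the first listed is shown). Each line gives the 250 bases before the start site in build GRCm38.p6, and capitals mark AGAC or its complement GTCT, the core letters that Smad proteins recognise.
Tgfb1, chr7:25686752-25687001, plus strand: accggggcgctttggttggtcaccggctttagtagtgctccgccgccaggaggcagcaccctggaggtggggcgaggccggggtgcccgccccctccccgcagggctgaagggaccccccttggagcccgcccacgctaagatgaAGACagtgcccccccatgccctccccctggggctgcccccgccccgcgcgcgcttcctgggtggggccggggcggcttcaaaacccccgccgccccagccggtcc
Ltbp1, chr17:75005279-75005528, plus strand: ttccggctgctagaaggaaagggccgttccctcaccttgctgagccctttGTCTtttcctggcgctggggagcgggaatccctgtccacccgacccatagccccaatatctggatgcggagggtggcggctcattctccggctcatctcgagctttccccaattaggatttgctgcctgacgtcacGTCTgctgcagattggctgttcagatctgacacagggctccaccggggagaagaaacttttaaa
Ltbp2, chr12:84876492-84876741, minus strand: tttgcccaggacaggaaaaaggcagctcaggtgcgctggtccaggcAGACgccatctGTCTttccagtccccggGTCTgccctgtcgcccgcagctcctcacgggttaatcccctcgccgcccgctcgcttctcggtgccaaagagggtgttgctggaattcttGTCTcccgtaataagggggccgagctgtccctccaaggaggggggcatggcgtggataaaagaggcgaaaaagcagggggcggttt
Tgfbr2, chr9:116175364-116175613, minus strand: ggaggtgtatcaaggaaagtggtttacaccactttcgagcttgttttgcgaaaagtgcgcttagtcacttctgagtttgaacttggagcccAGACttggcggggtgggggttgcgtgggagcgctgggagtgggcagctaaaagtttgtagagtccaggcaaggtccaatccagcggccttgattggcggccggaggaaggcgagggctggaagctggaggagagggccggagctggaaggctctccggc
Smad3, chr9:63757995-63758244, minus strand: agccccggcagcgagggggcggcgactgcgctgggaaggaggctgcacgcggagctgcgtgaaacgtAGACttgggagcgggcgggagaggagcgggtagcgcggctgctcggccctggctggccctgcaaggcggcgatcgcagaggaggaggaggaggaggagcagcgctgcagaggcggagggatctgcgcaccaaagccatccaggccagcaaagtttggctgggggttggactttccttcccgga
The Smad core was found 4 times upstream of Ltbp2, 2 times upstream of Ltbp1 and 1 time each upstream of Tgfb1, Tgfbr2 and Smad3. Over all 32851 promoter entries the median was 2 matches, 82.9% held at least 1, and 4 matches is the 95th percentile. The AP-1 motif TGANTCA (6.75% of all entries) and the TEAD motif GGAATG (12.6%), searched on both strands, were in none of these 5 windows. The GC box GGGCGG (32.7% of all entries) was found 5 times upstream of Tgfb1, 2 times each upstream of Ltbp2 and Smad3, and not in the windows of Ltbp1 and Tgfbr2. These matches describe letters in the sequence and not binding.

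In overloaded muscle Tgfb1, Tgfb3, Ltbp1, Ltbp2 and Tgfbr2 were higher than in sham muscle, Smad3 was lower, and Tgfb2, Tgfbr1 and Smad7 did not pass the test. The comparison set 5 overload against 2 sham arrays, averaged over both treatments, with a term for sex, on the log2(value + 1) scale. Where a sham array is left out below, this average is the comparison within the other treatment alone, and no separate check. Of the 9 genes 5 passed upward and 1 downward (limma, Benjamini-Hochberg adjusted p under 0.05 over 18193 genes). Over all genes 22.9% passed, 14.7% upward and 8.16% downward, so 64.3% of the calls were upward, and 39.1% with arrays centred on their medians. The same 5 genes were above both sham arrays on all 5 overload arrays, as were 23.1% of all genes, and Smad3 was below both, as were 18.3%. The median log2 difference of the 9 genes was 0.71, beside 0.07 over all genes. All these calls rest on limma variances moderated along a trend in intensity. Without that trend 0 of the 9 genes and 0 of all genes passed (adjusted p = 0.06 for Tgfb1, 0.0602 for Tgfbr2 and 0.0671 for Ltbp2).

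**Figure D1:**
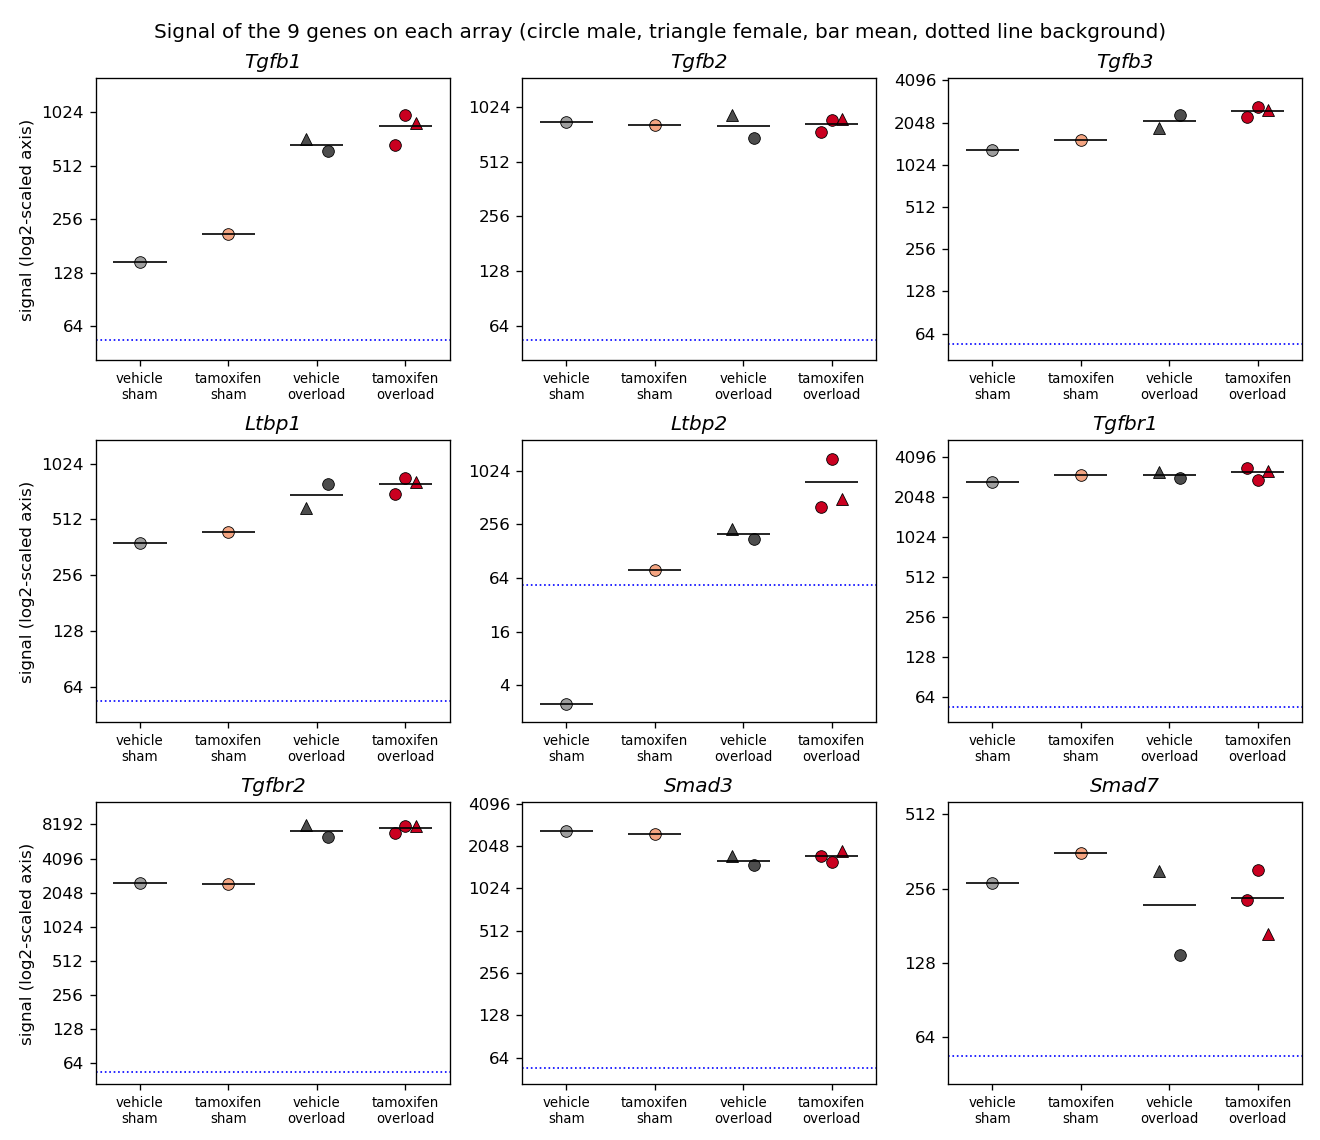
Signal (log2-scaled axis) of the leading probe set of each gene on the 7 arrays in 4 groups; circles are male and triangles female arrays, bars are group means and the dotted line is the background level of 53.6. All overload points of Tgfb1, Tgfb3, Ltbp1, Ltbp2 and Tgfbr2 lie above both sham points, those of Smad3 lie below, and Ltbp2 lies under background on the vehicle sham array alone.

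Among the ligands Tgfb1, the form most tied to fibrosis and immune regulation, rose most. Its signal was 146.6 with vehicle sham, 212.0 with tamoxifen sham, 723.4 and 616.3 with vehicle overload, and 672.4, 990.3 and 895.3 with tamoxifen overload. Every overload array was above both sham arrays, and the lowest of them was a vehicle overload array. Overload raised the log2 level by 2.01 ± 0.21 (SE; adjusted p = 0.000688), a 4.02-fold change. Tgfb3, a ligand known from scarless repair and palate development, had signals of 1311 and 1538 in sham muscle (vehicle, tamoxifen), 1873 and 2315 with vehicle overload, and 2237, 2643 and 2533 with tamoxifen overload. The groups did not overlap, and the rise was 0.71 ± 0.15 (SE; adjusted p = 0.013), or 1.64-fold. Tgfb3 lost its call when arrays were centred on their medians (0.42, adjusted p = 0.0982), without the tamoxifen sham array (adjusted p = 0.0862) and without vehicle overload replicate 2 (adjusted p = 0.163).

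Tgfb2, a ligand best known from heart and eye development, showed no such difference. Its leading probe set read 847.6 and 812.1 in sham muscle, 920.0 and 688.7 with vehicle overload, and 743.3, 868.4 and 880.3 with tamoxifen overload. Sham values lay within the range of the overload values. The log2 difference was -0.14 with a 95% interval from -0.51 to 0.23 (adjusted p = 0.608). The other 3 probe sets of Tgfb2 gave 0.19, -0.09 and -0.42, none of which passed.

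Of the latency protein genes Ltbp1, which encodes the anchor of the latent complex, rose. Its signal was 380.1 and 440.0 in sham muscle, 589.6 and 797.7 with vehicle overload, and 700.6, 853.1 and 817.4 with tamoxifen overload. The female vehicle overload array was the lowest of the overload arrays and still lay above both sham arrays. The rise was 0.90 ± 0.19 (SE; adjusted p = 0.012), or 1.87-fold, and it was not called without the tamoxifen sham array (adjusted p = 0.0752) or without vehicle overload replicate 2 (adjusted p = 0.135). A second probe set, above background on 3 of 7 arrays, gave 0.94 and did not pass (adjusted p = 0.184).

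Ltbp2, a protein of elastic fibres, moved furthest of the 9 genes. Its single probe set read 2.45 with vehicle sham, under the background level, and 79.4 with tamoxifen sham. With vehicle overload it read 224.7 and 176.9, and with tamoxifen overload 398.5, 1404 and 493.7. The fitted log2 difference was 4.52 ± 0.52 (SE; adjusted p = 0.00105). Because a signal under background has no reliable size, that value is not a measure of the fold. Against the background level vehicle overload was at least 3.67-fold higher than vehicle sham, and tamoxifen overload was 8.49-fold higher than tamoxifen sham in the fit, a log2 difference of 3.09 that came to 2.31 without tamoxifen overload replicate 2, the array with 1404. With a pseudocount of 16 in place of 1 the difference averaged over both treatments was 3.26 (adjusted p = 0.00576).

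Of the receptors Tgfbr2 rose and Tgfbr1 did not pass. Tgfbr2, the receptor that binds the ligand first, had signals of 2506 and 2418 in sham muscle, 8028 and 6292 with vehicle overload, and 6899, 7940 and 8006 with tamoxifen overload. Every overload array stood clear of the sham arrays, and the mean over all overload arrays was 7433 ± 795 (SD, n = 5). Within the groups the SD was 1227 with vehicle overload (n = 2) and 621 with tamoxifen overload (n = 3). The rise of 1.49 ± 0.14 (SE) was 2.80-fold, with the lowest adjusted p among the 9 genes (adjusted p = 0.00051). For Tgfbr1, the signalling receptor kinase, signals were 2628 and 2975 in sham muscle, 3168 and 2828 with vehicle overload, and 3402, 2751 and 3224 with tamoxifen overload. These groups overlapped. Its log2 difference was 0.08 with a 95% interval from -0.26 to 0.41 (adjusted p = 0.757), an upper bound below the lower bound of 1.16 for Tgfbr2, and its sign turned to -0.21 when arrays were centred on their medians.

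Of the genes of intracellular proteins Smad3, which encodes the transducer that carries the signal to the nucleus, fell. Its signal was 2618 and 2490 in sham muscle, 1731 and 1496 with vehicle overload, and 1747, 1573 and 1881 with tamoxifen overload. Both sham arrays were above all overload arrays. The log2 level fell by 0.69 ± 0.13 (SE; adjusted p = 0.00813), to 0.618 of the sham level. Without the vehicle sham array Smad3 was not called (adjusted p = 0.0572), nor without vehicle overload replicate 2 (adjusted p = 0.0867). Smad7, the inhibitor of the receptors, read 269.0 and 357.2 in sham muscle, 302.3 and 137.2 with vehicle overload, and 229.4, 303.3 and 168.0 with tamoxifen overload. Its overload arrays spread over more than the distance between the groups. The log2 difference was -0.57 ± 0.39 (SE; adjusted p = 0.351), and it came to 0.19 without vehicle overload replicate 2.

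**Figure D2:**
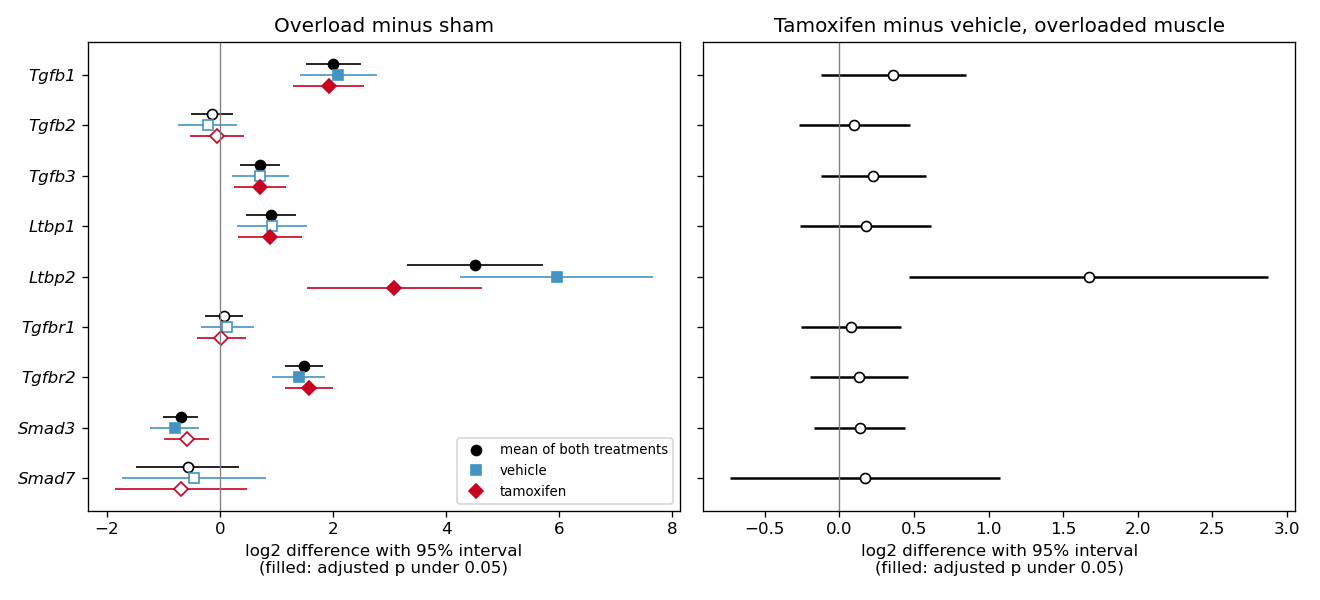
Log2 differences with 95% intervals from the linear model for the 9 genes, overload minus sham on the left (averaged and within each treatment) and tamoxifen minus vehicle in overloaded muscle on the right; filled symbols have an adjusted p under 0.05. Tgfb1, Ltbp2 and Tgfbr2 are filled in all 3 overload comparisons, and no symbol is filled on the right.

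The probe sets of a gene did not all move alike. For Tgfbr2 the second probe set rose as well, by 0.80 (adjusted p = 0.0305 over all probe sets), while the third lay under background on every array. For Smad3 the second probe set fell by 0.61 on the log2 scale (adjusted p = 0.0436) and the third stood at -0.15 (adjusted p = 0.737). The dimmer probe set of Tgfb1, with signals from 57.9 to 95.6, stood at 0.29 (adjusted p = 0.659) and did not show the rise of the leading one. Both further probe sets of Tgfbr1 had negative values, -0.46 and -0.24, neither of which passed. The one at -0.46 read 356.8 and 364.8 in sham muscle and from 194.7 to 322.8 in overload, without overlap. By leading probe sets 18.3% of all genes lay below both sham arrays in this way. When all probe sets of a gene were averaged, 3 of the 9 genes were called, Tgfb1 (at 1.15, adjusted p = 0.0107), Tgfb3 and Ltbp2. Tgfbr2 then came to 0.46 (adjusted p = 0.227), Ltbp1 to 0.85 (adjusted p = 0.186) and Smad3 to -0.49 (adjusted p = 0.0699).

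**Figure D3:**
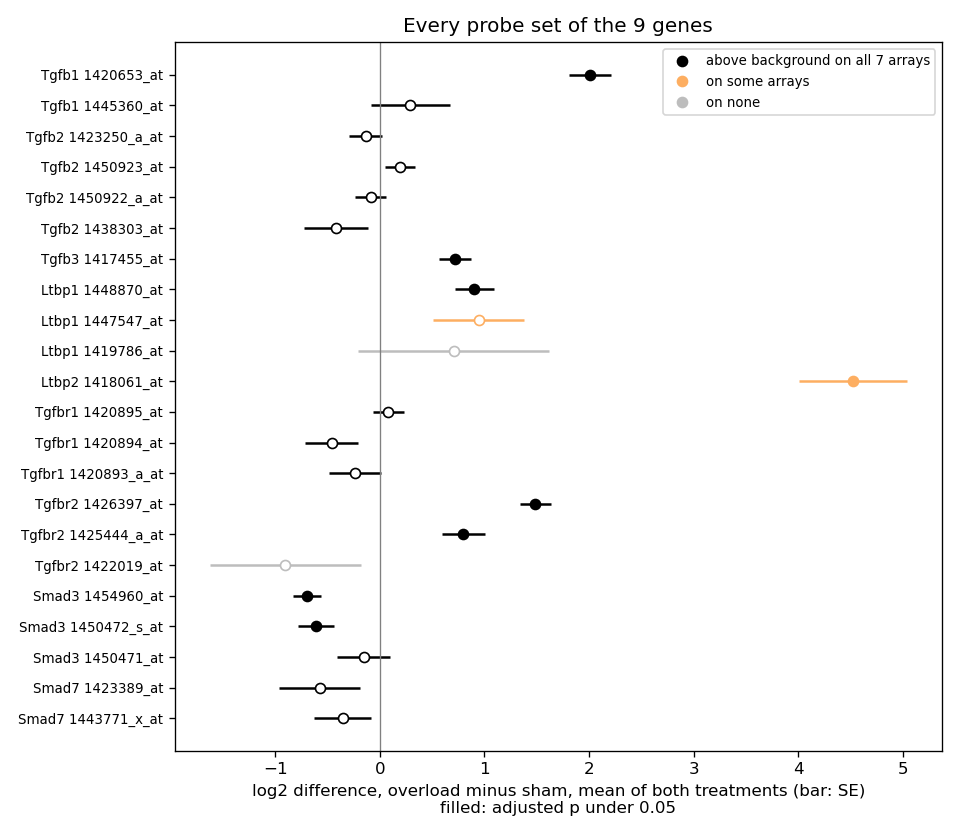
Log2 difference of overload minus sham (mean of both treatments) for each of the 22 probe sets, with the SE as bar; colour gives on how many arrays the probe set lay above background, and filled symbols have an adjusted p under 0.05 over all probe sets. The brighter probe sets of Tgfbr2 and of Smad3 agree in direction, while the dim probe set of Tgfb1 stays near 0.29.

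Within each treatment the same genes were compared with that treatment's single sham array, which was assumed to vary like the overload arrays. With vehicle, Tgfb1 rose by 2.09, Tgfbr2 by 1.40 and Smad3 fell by 0.80 on the log2 scale (adjusted p = 0.00633, 0.00718 and 0.038), and Ltbp2 passed as well (adjusted p = 0.00397). These are 4 of the 9 genes, beside 8.79% of all genes, with 3 upward (6.35% of all) and 1 downward (2.44%). With tamoxifen 5 of the 9 passed, beside 14.9% of all genes, all 5 upward (9.98% of all genes passed upward and 4.9% downward): Tgfb1 rose by 1.93, Tgfbr2 by 1.58, Ltbp2 by 3.09, Ltbp1 by 0.89 and Tgfb3 by 0.71 (adjusted p = 0.00416, 0.00242, 0.0207, 0.0476 and 0.0477). Smad3 stood at -0.59 with tamoxifen (adjusted p = 0.0549), and Tgfb3 and Ltbp1 at 0.72 and 0.92 with vehicle (adjusted p = 0.085 and 0.0763). The calls of Tgfb3 and Ltbp1 with tamoxifen were each lost in 12 of 16 alternatives of processing, including when any overload array other than tamoxifen replicate 1 was dropped. That of Smad3 with vehicle was lost in 8 of 16, including when vehicle replicate 1 or 2, or tamoxifen replicate 3, of the overload arrays was dropped. Without vehicle overload replicate 2 only Ltbp2 kept its call with vehicle (Tgfb1 adjusted p = 0.0551, Tgfbr2 adjusted p = 0.078). Without tamoxifen overload replicate 1 Tgfb3 and Ltbp1 were called with vehicle too (adjusted p = 0.0296 and 0.026), and Smad3 with tamoxifen (adjusted p = 0.0454). With probe sets averaged, Tgfb1 with tamoxifen came to 0.97 (adjusted p = 0.0623), and Tgfbr2 to 0.58 with tamoxifen and 0.34 with vehicle (adjusted p = 0.268 and 0.625), so these calls were lost, as was that of Smad3 with vehicle.

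Whether the treatments differed in their response was tested by the interaction. None of the 9 genes passed (limma; 1 had an unadjusted p under 0.05), and neither did any of the 18193 genes (0%; 1021 had an unadjusted p under 0.05). The gene below 0.05 was Ltbp2, with a difference of -2.87 between the responses (unadjusted p = 0.0168, adjusted p = 0.782). It came to -0.77 with a pseudocount of 16, so its size rests on the vehicle sham signal of 2.45 under background. For Tgfb1 and Tgfbr2 the 95% intervals of the interaction, from -1.05 to 0.72 and from -0.42 to 0.79, both include 0.

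In overloaded muscle the 9 genes were not called between tamoxifen (3 arrays), where satellite cells are meant to be depleted, and vehicle (2 arrays). None of the 9 passed (limma; 1 at an unadjusted p under 0.05), and none of all genes did (0%; 1932 genes, or 10.6%, at an unadjusted p under 0.05). Ltbp2 had the largest difference, 1.67 ± 0.52 (SE; unadjusted p = 0.0126, adjusted p = 0.404). All 3 tamoxifen overload arrays were above both vehicle overload arrays, as they were for 16.9% of all genes. Without tamoxifen overload replicate 1 Ltbp2 passed (2.06, adjusted p = 0.0307), and without replicate 2, the array with 1404, it came to 1.15 (adjusted p = 0.545). Over all alternatives its adjusted p ranged from 0.0307 to 1. Tgfb1 stood at 0.36 with a 95% interval from -0.12 to 0.85, Tgfb3 at 0.23 and Ltbp1 at 0.18. All 9 values were positive, as were 52.8% over all genes, and the values of Tgfb2, Tgfbr1, Tgfbr2 and Smad3 turned negative when arrays were centred on their medians, a scaling that moved the median of all genes by -0.14.

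Between the sham muscles, tamoxifen against vehicle is 1 array against 1, with no replicate check. The log2 differences of 8 genes lay between -0.07 (Smad3) and 0.53 (Tgfb1). That of Ltbp2, 4.54, again sets a signal against one under background. For all genes the central 90% of such differences reached from -1.39 to 1.68. Sex was covered by the overload arrays, 2 female and 3 male. Both sham arrays are male, so a sex difference cannot be told apart from a response to overload that differs by sex. The overload against sham values assume that the sex difference is the same in sham muscle. Without vehicle overload replicate 2 the vehicle overload group is 1 female array, set against a male sham array through the sex term. None of the 9 genes was called between the sexes (limma; 0 at an unadjusted p under 0.05), beside 0.0495% of all genes (0.033% higher in females and 0.0165% lower). For Tgfb2 and Tgfbr2, 2 of the 9, both female overload arrays were above all male ones, as they were for 7.48% of all genes (and below them for 10.5%), with differences of 0.25 and 0.22 (adjusted p = 0.983 for both).

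The other genes of the pathway were taken from 6 lists of 74 entries, of which 71 were measured, for 68 different genes. These lists too were chosen with earlier results of these data known, so their shares are descriptive. Of these 68 genes 27 rose and 7 fell with overload, with a median log2 difference of 0.65 beside 0.07 for all genes, of which 14.7% rose and 8.16% fell. The counts that rose among Smads and partners (1 of 9) and regulators (1 of 13) make up a share no larger than that of all genes. The counts that fell there, 2 of 9 and 3 of 13, stand beside 8.16% of all genes. Genes of proteins that hold or shield latent ligand rose in 4 of 6 cases, and none fell. Fbn2, a fibrillin of the microfibrils that carry LTBPs, went from signals of 13.5 and 27.3 in sham muscle, under background, to a range from 223.7 to 1089 in overload. Against the background level it was at least 4.80-fold higher with vehicle and at least 13.7-fold higher with tamoxifen (adjusted p = 0.000198 in the fit). Emilin1, an elastic fibre glycoprotein that keeps the TGF-beta precursor from being processed, rose by 2.64, Ltbp3 by 1.21 and Nrros, which tethers latent TGF-beta on myeloid cells, by 1.18. Ltbp4 stood at 0.06 (adjusted p = 0.837).

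Of 13 genes that activate latent ligand 5 rose and 1 fell. The membrane protease gene Mmp14 rose by 3.45 ± 0.17 (SE; adjusted p = 4.26e-05), from signals of 451.8 and 689.4 to a range from 4559 to 9751. The gelatinase gene Mmp2 rose by 2.09, and the integrin subunits Itgb1 and Itgav by 0.84 and 0.76, while Itgb5 fell by 0.54 on the log2 scale. The subunit Itgb3 was called higher too (adjusted p = 0.0297), from signals of 71.9 and, under background, 39.95 in sham muscle to a range from 97.2 to 216.8, so its fold has no exact size. With median centring, and with probe sets averaged, 2 rather than 5 of them were higher, and without the tamoxifen sham array 3 were. Thbs1, a secreted activator, stood at 1.24 in the fit with the sex term (adjusted p = 0.0799). Its mean log2 level, without that term, was 9.10 over the sham and 10.82 over the overload arrays. Of 8 receptors and co-receptors 3 rose, all of them known to damp the signal: Cd109, a co-receptor that takes up the receptors, by 1.75, Vasn, which traps the ligand, by 1.53 and the pseudoreceptor Bambi by 1.15. Acvrl1 and Eng, the endothelial receptor pair, stood at 0.14 and 0.04 and did not pass.

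Of 9 genes of Smads and partner proteins 1 rose and 2 fell. Zfyve9, the anchor that presents Smads to the receptor, fell by 1.40 and the common partner Smad4 by 0.65 on the log2 scale, and Smad1, the transducer of bone morphogenetic proteins, rose by 0.80. Smad2 stood at 0.31 (adjusted p = 0.222). Without the tamoxifen sham array 0 of the 9 were higher and 1 was lower, without vehicle overload replicate 2 there was 1 each way, and with median centring 0 were higher and 3 lower. Among 13 regulators of Smad signalling 3 fell and 1 rose. The ubiquitin ligase gene Wwp1 fell by 1.28, the phosphatase gene Ppm1a by 0.78 and the deubiquitinase gene Usp15 by 0.48 on the log2 scale, while Pmepa1, a feedback inhibitor induced by the pathway, rose by 0.71. Without the tamoxifen sham array, and without vehicle overload replicate 2, 1 of the 13 was lower and 0 were higher.

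Of 22 genes known as targets of TGF-beta 15 rose and 1 fell, with a median of 1.34. Postn, the matrix protein periostin, rose by 5.42 ± 0.14 (SE; adjusted p = 3.74e-06), from signals of 481.5 and 696.2 to a range from 22602 to 28397. Timp1, an inhibitor of matrix proteases, rose by 4.12 and the collagen crosslinking enzyme gene Lox by 2.88. Col1a1, a chain of type I collagen, also rose, from signals of 2322 and 3182 to a range from 18913 to 25142 (adjusted p = 5.36e-05). Ccn2, a target used as a readout of the pathway, stood at 0.19 in the fit with the sex term (adjusted p = 0.801). Its mean log2 level, without that term, was 11.05 over the sham and 11.91 over the overload arrays. Tagln stood at 0.33 (adjusted p = 0.452), and Bhlhe40 fell by 0.79. These targets answer to other signals as well. The arrays read RNA, and protein levels and signalling were not measured. With median centring, and without the tamoxifen sham array, 10 of them were higher. In the comparison of tamoxifen with vehicle in overload 0 of the 68 genes passed, and 20 had an unadjusted p under 0.05 (limma). The 3 lowest were the integrin subunit Itgb8, which activates latent TGF-beta, at 1.65, Mmp14 at 0.82 and Angptl4 at 1.17 (adjusted p = 0.378 for each).

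**Figure D4:**
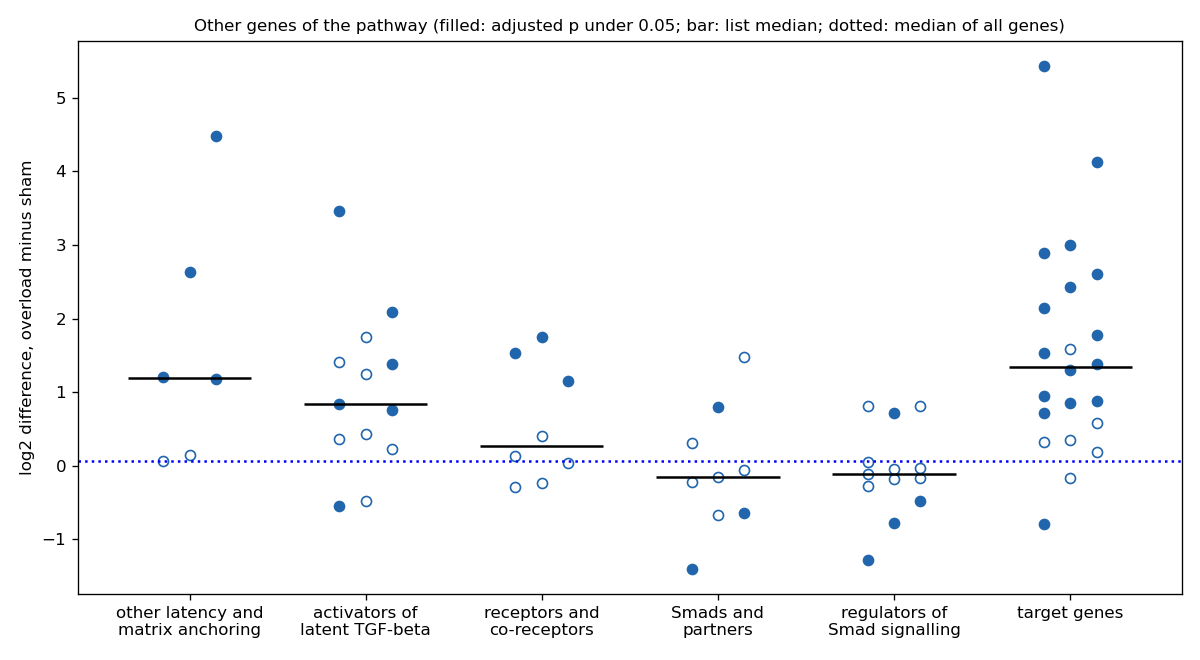
Log2 difference of overload minus sham for each measured gene of the 6 lists, with list medians as bars and the median of all genes (0.07) as dotted line; filled symbols have an adjusted p under 0.05. Latency and target genes lie mostly above the line, and Smads and their regulators lie around it.

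The genes whose pattern over the 7 arrays was most like each of the 9 were found by the root mean square (RMS) difference of mean-centred log2 levels, among genes above background on every array. For Tgfb1 they were Gpx8 and C1qc, a complement chain made by macrophages (RMS 0.10 for both, where Tgfb1 itself varied by 0.99). Tgfbr2 was closest to Rac3 and Tceal8 (0.12 and 0.13), Ltbp1 to Parp11 and Pld3 (0.08 for both) and Tgfb3 to Ankmy2 and Morc3 (0.06 and 0.07). Smad3 was closest to Cd36, a fatty acid transporter, and Dop1b (0.05 and 0.06). Of the genes that were not called, Tgfb2 was closest to Med13l and Alg2 (both 0.05), Tgfbr1 to Gm5617 and Dcn (both 0.05), and Smad7 to H3c7 and Zfp462 (0.16 and 0.21). For Ltbp2, under background on 1 array, no such gene is given.

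Markers of fibroblasts and macrophages mostly rose with overload. Lists for other cells rose in part, went both ways or had no gene called. Among 11 genes marking fibroblasts and fibro-adipogenic progenitors, 10 rose with overload. The summed signal of the 11 went from 40549 and 51670 in sham muscle to a range from 110578 to 139749. This list holds Col1a1, which is also counted above among the targets. Of 12 macrophage and monocyte markers 11 rose, from summed signals of 5896 and 10604 to a range from 26282 to 41068. The highest macrophage sum was on tamoxifen overload replicate 2, which also had the highest Ltbp2 and Tgfb1 signals. The platelet markers, with 0 of 6 called, had their highest sum on that array too (3910, with the other overload arrays from 1835 to 2352). Most of that sum was Pf4, at 3170, while Ppbp (317.6) and Itga2b (202.1) were not highest there. That array also had the highest median signal (127.7) and the highest share of genes above background (72.7%) of the 7 arrays. Of 10 endothelial markers 2 rose and 2 fell, and of 8 of smooth muscle and pericytes 1 rose and 1 fell. Of 6 tendon markers 3 rose, and of 8 satellite cell markers 4 rose. All these marker counts stand beside 14.7% of all genes that rose and 8.16% that fell. The satellite cell sum was 2485 with vehicle sham and 2041 with tamoxifen sham. It was 5142 and 6526 with vehicle overload and from 3992 to 4444 with tamoxifen overload. On the tamoxifen overload arrays Pax7, Calcr and Myf5 read at most 120.4, 22.4 and 255.8. Other genes of the list therefore make up most of the sum there, and it is not a measure of satellite cell number. The muscle fibre sum was 314348 and 328574 in sham muscle and in overload ranged from 221865 to 280563, with 0 of 8 genes called. Of the T cell markers, 0 of 6 were called, and Cd3e, Cd3g and Cd4 lay above background on 0, 2 and 1 of the 7 arrays. The part of these cells in the values of the 9 genes was not tested, and in whole muscle more cells of a type and more RNA per cell cannot be told apart.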

How the data were processed

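Gene expression was read on Affymetrix mouse arrays from 1 µg of total RNA, per the labels. The authors deposited linear intensities per probe set. The submitters' processing notes name Partek, without saying for which step. For the summarisation of probes, the method is not given in the sources used. The mean after dropping the lowest and highest 2% is 500 on every deposited array, which points to a scaling of whole arrays by the authors, under which a change in total RNA cannot be seen. Values were taken as log2(value + 1). The 932 probe sets with several symbols, 9160 without and 64 controls were left out. Symbols were checked by Entrez identifier against RefSeq GRCm38.p6 (34741 matched, 204 not).

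A model with a term for each of the 4 groups and for sex was fitted to 18193 genes with limma 3.58.1 in R 4.3.3. Variances were moderated with a trend in intensity, from 2 residual and 5.95 prior degrees of freedom. Tests were two-sided. Calls were made at an adjusted p (Benjamini-Hochberg) under 0.05. The procedure was run on simulated data with normal noise drawn at the fitted moderated spread. That run takes the variance model as given and cannot test it. Background is the 95th percentile of 77 olfactory, vomeronasal and taste receptor genes.

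Beside the 9 genes, the text names up to 4 called genes of each list with the largest differences above background, up to 3 for tamoxifen against vehicle, and the 2 most alike for each gene above background on every array. Ltbp4, Thbs1, Itgav, Itgb5, Acvrl1, Eng, Smad2, Ccn2, Tagln and Bhlhe40 were named after their values were seen. The members and lists were chosen with earlier results of these data known. As alternatives, the sex term, the intensity trend or the interaction was dropped, the fit was limited to male or to overload arrays, arrays were quantile normalized or centred on their medians, the pseudocount was set to 16, dim genes were filtered, probe sets were averaged or all kept, and each array was left out in turn. Figures used Python 3.11.15 and matplotlib 3.10.9.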

Additional observations from a re-analysis of the deposited data

How the results depend on the processing

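The calls rest on variances moderated along the intensity trend. Without it 0 of the 9 genes and 0 genes in all passed for overload against sham (averaged, with vehicle and with tamoxifen), and 0 of all genes, against 9, between the sexes. With neither trend nor sex term, chosen after seeing the data, 3 of the 9 passed for the average, 1 with vehicle and 2 with tamoxifen, beside 419 and 671 of all genes with vehicle and with tamoxifen. Over all genes 4163 passed for the average, 1599 with vehicle and 2706 with tamoxifen. For vehicle the count was 1024 with male arrays alone, 962 after quantile normalization and 1051 with the mean of probe sets. With that mean 3, 2 and 1 of the 9 genes passed (average, vehicle, tamoxifen). With tamoxifen 3 of the 9 passed with male arrays alone, after quantile normalization, with a pseudocount of 16 and with every probe set. For tamoxifen against vehicle in overload 3 of all genes passed with male arrays alone and 1 with overload arrays alone.

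Leaving out 1 array gave from 3 to 6 of the 9 genes and from 1613 to 4695 of all genes for the average, from 1 to 6 and from 371 to 2499 with vehicle, from 3 to 6 and from 1954 to 3563 with tamoxifen, from 0 to 1 and from 0 to 227 for tamoxifen against vehicle in overload, 0 and from 0 to 12 for the interaction, and 0 and from 8 to 37 between the sexes. The lowest count with vehicle, 371, came without vehicle overload replicate 2, and the highest, 2499, without tamoxifen overload replicate 1, which also gave the 227. Where a sham array was left out the model had no interaction, and comparisons that need its group gave no value. The average was then the comparison within the other treatment alone, which also gave the lowest count of all genes for the average.

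Of 666 values of single genes under the alternatives 570 kept their direction and their side of the threshold, 65 lost the call, 6 gained it and 25 changed sign, all of the last among values that were not called. Tgfbr1 turned to -0.2113 (average), -0.1723 (vehicle), -0.2502 (tamoxifen) and -0.06918 (tamoxifen against vehicle) with median centring, to -0.2052, -0.1418 and -0.2685 for the first 3 with the mean of probe sets, and to -0.003693 (average), -0.09661 (tamoxifen) and -0.007228 (tamoxifen against vehicle) without tamoxifen overload replicate 1. Smad7 turned without vehicle overload replicate 2 (0.1894 for the average, 0.8151 with vehicle, -0.8434 for tamoxifen against vehicle), and without tamoxifen overload replicate 2 (-0.05334 for the last). For tamoxifen against vehicle, Tgfb2, Tgfbr2 and Smad3 came to -0.04513, -0.01265 and -0.009374 with median centring, Tgfb2 and Tgfbr2 to -0.06346 and -0.003858 without vehicle overload replicate 2, and Ltbp1 to -0.04516 with male arrays alone and without either female array, which are nearly the same fit. Tgfb2 came to 0.02848 with tamoxifen without the sex term, with or without the trend, and Tgfbr2 to -0.1255 between the sexes with the mean of probe sets. With 1 array left out the highest or lowest value on the other side was 0.1494 (average), 0.1331 (tamoxifen) and 0.1459 (tamoxifen against vehicle) for Tgfbr1, -0.8013 (average), -0.9657 (vehicle) and 0.9374 (tamoxifen against vehicle) for Smad7, and, for tamoxifen against vehicle, 0.2221 for Tgfb2, 0.2342 for Tgfbr2 and 0.4705 for Ltbp1. The causes were not tested.

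Median centring moved the median of all genes by -0.29 for the average and the share of upward calls from 64.3% to 39.1%, and quantile normalization moved the median by -0.13. No paired analysis was possible because the groups share no replicate numbers in the labels.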
